A study of Strongylocentrotus purpuratus with 8 samples.

Results

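The genome of the purple sea urchin, Strongylocentrotus purpuratus, was divided into windows of 500 bp, and the windows that held 1 to 3 CpG sites were described for their DNA methylation in embryos and in an adult tissue. The CpG number of a window was the number of sites listed in any of the 8 libraries. Of 1522405 windows with at least 1 listed site, 260424 held 1 to 3. A level was given where each of the 8 libraries had at least 10 reads in the window, which 7036 of these windows had (2.70%). They made up 1.29% of the 546613 windows of any CpG number that passed the same minimum. Statements about these 7036 CpG-poor windows do not extend to the others of 1 to 3 sites, which were read too thinly.

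CpG methylation is the addition of a methyl group to a cytosine that is followed by a guanine, and in animals the pattern is copied at DNA replication by maintenance methyltransferases. In sea urchins and many other invertebrates it is mosaic, with long methylated stretches, often over the bodies of active genes, separated by unmethylated stretches. Methylated cytosines tend to mutate to thymine over evolutionary time, so that stretches methylated in the germ line are often poor in CpG. A window with few CpG sites is therefore a part of the genome where each site carries much of the local signal and few reads measure it.

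Untreated embryos were taken 24, 48 and 72 hours after fertilisation (hpf), and the adult tissue was tube feet, the soft appendages that sea urchins use for walking and sensing. Each of the 4 groups had 2 biological replicates. Methylation was measured by MethylC-seq, in which bisulfite changes unmethylated cytosines so that they are read as thymines. A whole embryo and a tube foot each mix several cell types, and the level of a window is an average over them. The labels give neither parents nor individuals, so that the difference between adult and embryo libraries cannot be told apart from a difference between the animals they came from. A C-to-T sequence difference in an animal is also read as an unmethylated site, and its part in the results was not tested.

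The libraries held 75377025 to 126381599 reads at CpG sites, and 0.112% to 0.296% of cytosines in the added lambda phage DNA, which is unmethylated, were read as methylated. The library of 24 hpf replicate 2 stood apart in coverage. It had 10 or more reads in 6.24% of the windows of 1 to 3 sites, against 19.7% to 28.4% in the other 7 libraries, and 19491 windows missed the minimum in that library alone. In the other 7 libraries these 19491 windows had mean levels of 66.4% to 68.2% in the embryos and of 51.8% and 51.5% in the tube feet. Windows that averaged 80% or more in the other 5 embryo libraries passed the minimum in 24 hpf replicate 2 in 29.9% of cases (4117 of 13767), against 22.8% (782 of 3430) of windows at 20% or less.

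The minimum on reads also favoured the windows with more sites. It kept 195 of 72352 windows with 1 site (0.270%), 1567 of 88695 with 2 sites (1.77%) and 5274 of 99377 with 3 sites (5.31%), so that 75.0% of the CpG-poor windows had 3 sites. The median CpG-poor window had 18 reads in 24 hpf replicate 2 and 27 to 39 reads in the other libraries. Reads were counted at each site, and a read over 2 sites counts at both.

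The CpG-poor windows were highly methylated in the embryos and less methylated in the tube feet. The level of a window is the percent of its reads that were methylated, and the mean over the 7036 windows was 72.7% and 73.7% in the replicates at 24 hpf, a group mean of 73.2% ± 0.723 (SD, n = 2). The replicates at 48 hpf stood at 70.4% and 71.1%, a mean of 70.8% ± 0.448 (SD, n = 2). Those at 72 hpf stood at 71.9% and 71.6%, a mean of 71.8% ± 0.231 (SD, n = 2). The tube feet stood at 53.2% and 52.9%, a mean of 53.0% ± 0.186 (SD, n = 2). Both tube foot libraries lay below all 6 embryo libraries, which lay within 3.29 points of each other.

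The tube feet were 18.9 points lower than the embryos, with an exact two-sided permutation p over libraries of 0.0357, the smallest that 28 splits can give. After Benjamini-Hochberg adjustment over the 16 tests on library values the p was 0.0519, so this contrast did not pass the correction at 0.05. The test of all 4 groups together gave an exact permutation p of 0.00952, the smallest that this design can give, and 0.0305 after adjustment. A trend over the 3 embryonic stages was not detected (exact two-sided Jonckheere-Terpstra permutation p = 0.578). When 24 hpf replicate 2 was left out and windows were chosen on the other 7 libraries, 26527 windows were kept and the tube feet were 16.4 points lower than the embryos, with an exact permutation p of 0.0476.

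Summing the reads of all CpG-poor windows gave lower levels, because windows with many reads then weigh more. The pooled level was 67.5% in 24 hpf replicate 1 but 51.9% in replicate 2 of that stage. It was 65.0% and 63.3% in the libraries of 48 hpf, 66.4% and 65.9% in those of 72 hpf, and 49.4% and 49.5% in those of tube feet. On this scale the library of 24 hpf replicate 2 was nearer to the tube feet than to any other embryo library, although its mean over windows was the highest of the 8. The pooled level was 13.9 points lower in the tube feet (exact permutation p = 0.0357, adjusted 0.0519), and the 4 groups did not differ by the exact permutation test (p = 0.181, adjusted 0.241). Without 24 hpf replicate 2, on the same windows, the test of the 4 groups gave an exact permutation p of 0.0190.

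That gap lay beside a small set of windows with very many reads. Of the CpG-poor windows, 295 (4.19%) had more reads per site than 99% of all windows kept, that is more than 280 reads per site over the 8 libraries. They held 34.2% of the CpG-poor windows' reads in 24 hpf replicate 2 and 12.9% to 17.0% in the other libraries. Their mean level was 28.6% to 31.1% in the embryos and averaged 19.3% ± 0.347 (SD, n = 2) in the tube feet. The other 6741 windows averaged 72.3% to 75.6% in the embryos and 54.6% and 54.4% in the tube feet.

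**Figure D1:**
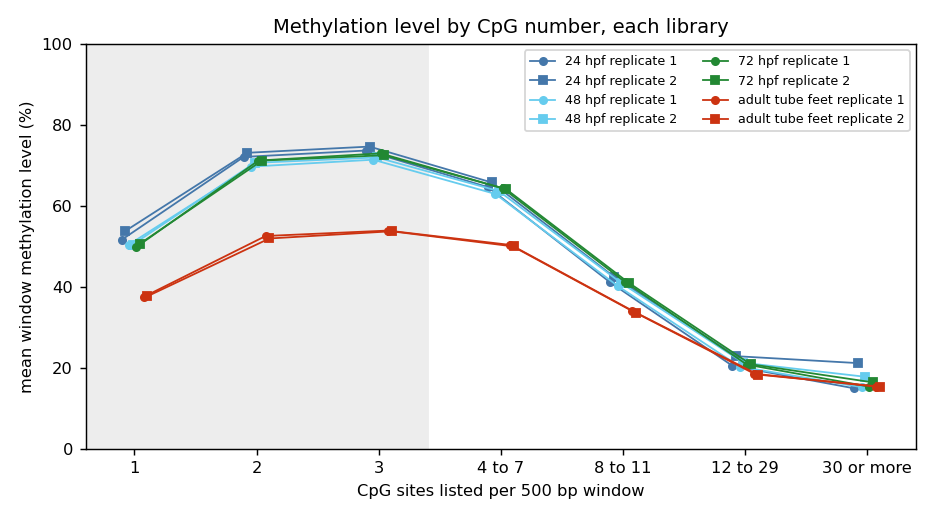
Mean methylation level of 500 bp windows (percent, vertical axis) against their number of CpG sites (horizontal axis), with 1 line for each of the 8 libraries. Embryo lines lie above the tube foot lines up to 29 sites and mix with them at 30 or more, and the distance is 18.9 points for windows of 1 to 3 sites.

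The share of windows in each class of level shows where the lower mean of the tube feet lay. Highly methylated windows, at 80% or more, made up 59.9% and 62.8% of the CpG-poor windows in the replicates of 24 hpf. Their share was 54.5% and 55.2% for 48 hpf, 58.2% and 57.1% for 72 hpf, and 27.6% and 26.4% for tube feet. Windows between 20% and 80% made up 26.0% to 34.0% in the embryo libraries and 51.1% and 52.4% in the tube feet. Windows at 20% or less made up 11.2% to 11.7% in the embryo libraries and 21.3% and 21.2% in the tube feet. The tube feet thus had fewer highly methylated windows and more in both lower classes, and their values did not overlap those of the embryos in any of the 3 classes.

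The share at 80% or more was 31.0 points lower in the tube feet and the share between 20% and 80% was 21.1 points higher, each with an exact permutation p of 0.0357 that rose to 0.0519 after adjustment. Across the 4 groups both shares differed (exact permutation p = 0.00952, adjusted 0.0305), and neither showed a trend over the stages (exact permutation p = 0.578 for both). The median window was at 83.1% ± 1.35 (SD, n = 6) in the embryos and at 58.6% and 58.3% in the tube feet.

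**Figure D2:**
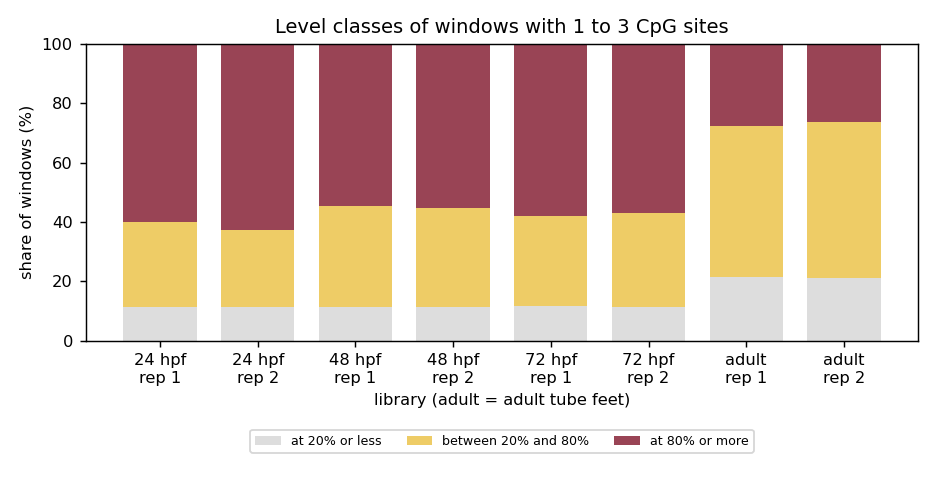
Share of the 7036 windows of 1 to 3 CpG sites (percent, vertical axis) at 80% or more, between 20% and 80%, and at 20% or less, with 1 bar per library. The share at 80% or more is 54.5% to 62.8% in the 6 embryo libraries and 27.6% and 26.4% in the tube feet.

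Among the CpG-poor windows, those with 1 site stood lower than those with 2 or 3. The 195 windows with 1 site averaged 51.1% ± 1.43 (SD, n = 6) over the embryo libraries and 37.6% ± 0.106 (SD, n = 2) over the tube foot libraries. The 1567 windows with 2 sites averaged 71.3% ± 1.18 (SD, n = 6) and 52.3% ± 0.436 (SD, n = 2), and the 5274 with 3 sites averaged 72.9% ± 1.17 (SD, n = 6) and 53.8% ± 0.122 (SD, n = 2). The distance between 1 and 3 sites was larger than the spread between libraries, and no test was made of it.

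The windows with 1 site were also the ones most often read very deeply. Of the 195, 74 (37.9%) were above the limit of 280 reads per site, against 6.64% of those with 2 sites and 2.22% of those with 3 sites. In the 121 windows with 1 site below that limit, the mean level was 72.7% ± 2.12 (SD, n = 6) in the embryos and 54.0% ± 0.027 (SD, n = 2) in the tube feet. Among windows below the limit, the corresponding means were 74.1% and 54.4% for 2 sites and 73.7% and 54.5% for 3 sites. Without the deeply read windows, the 3 CpG numbers thus lay within 1.37 points of each other in the embryos and within 0.555 points in the tube feet.

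The next class, windows of 4 to 7 CpG sites, was less methylated in the embryos. Its 78556 windows averaged 63.0% to 65.8% in the embryo libraries and 50.4% and 50.0% in the tube feet, and the CpG-poor windows were higher in each of the 8 libraries. The distance in the replicates was 8.08 and 7.95 points for 24 hpf, 7.50 and 7.45 points for 48 hpf, 7.57 and 7.52 points for 72 hpf, and 2.78 and 2.91 points for tube feet. It averaged 6.47 points over the libraries, with an exact two-sided sign-flip permutation p of 0.00781, the smallest that 8 libraries can give, and 0.0305 after adjustment. The libraries share the same windows, so this p speaks of these windows and not of others.

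The order of the classes depended on the minimum of reads. With at least 20 reads in each library, 1546 CpG-poor windows were left and their mean was 0.238 points below that of windows of 4 to 7 sites (exact permutation p = 0.50). With at least 5 reads it was 9.82 points above, and with windows chosen on the 7 libraries other than 24 hpf replicate 2 it was 12.3 points above. The 467 CpG-poor windows with 30 or more reads in each library averaged 58.9% to 62.9% in the embryos and 46.2% and 46.1% in the tube feet, below the 3925 windows with 10 to 14 reads in their least covered library, which averaged 72.4% ± 1.19 (SD, n = 6) and 52.7% ± 0.191 (SD, n = 2).

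The fall from embryo to tube feet was larger in the CpG-poor windows than in those of 4 to 7 sites. It was 18.9 points against 14.1 points, and the difference of the changes was -4.83 points (exact permutation p = 0.0357, adjusted 0.0519). With at least 20 reads in each library it was -1.93 points (exact permutation p = 0.0357). Windows with exactly 4 sites, of which 11068 were kept, averaged 71.9% ± 1.04 (SD, n = 6) in the embryos and 54.6% ± 0.283 (SD, n = 2) in the tube feet, close to the windows with 3 sites. Denser windows were lower and fell less, from 41.2% ± 0.738 (SD, n = 6) to 33.8% ± 0.279 (SD, n = 2) at 8 to 11 sites and from 21.1% ± 0.931 (SD, n = 6) to 18.4% ± 0.155 (SD, n = 2) at 12 to 29 sites.

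The minimum of 10 reads did not mark a step in level. The 5584 windows whose least covered library had 7 to 9 reads, just outside the minimum, averaged 70.1% to 73.1% in the embryos and 53.1% and 52.9% in the tube feet. The 2805 windows with 10 to 12 reads there, just inside it, averaged 70.8% to 74.2% and 52.7% and 52.5%.

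No CpG-poor window passed the test of single windows between embryonic stages. The test was a quasi-binomial logistic model of the read counts with dispersions moderated by limma. It was fitted to 259841 of the 546613 windows, among them 6481 of the 7036 CpG-poor windows. The windows not fitted could not be called but counted in the adjustment. The test called a window at a Benjamini-Hochberg adjusted p below 0.05 and a difference of at least 20 points. It called 0 of 7036 CpG-poor windows between 24 and 48 hpf, 0 between 48 and 72 hpf and 0 between 24 and 72 hpf. Over windows of any CpG number the share called was 0% in each direction, except 0.00183% that were lower at 72 than at 24 hpf. At an unadjusted p below 0.05 the model gave 319 (4.53%), 245 (3.48%) and 347 (4.93%) CpG-poor windows in these contrasts. Over windows of any CpG number it gave 16974 (3.11%), 13366 (2.45%) and 17893 (3.27%). These shares count the windows that were not fitted, which were a larger part of all windows than of the CpG-poor ones. They therefore do not rank the CpG-poor windows against windows in general. limma on log-ratios called 0 CpG-poor windows in each contrast.

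Small shifts between stages were present in the medians. The median difference over the CpG-poor windows was -1.89 points from 24 to 48 hpf, with 60.6% of windows below 0, and 0.778 points from 48 to 72 hpf. Of the 4362 highly methylated windows of 24 hpf, 3559 (81.6%) kept that class to 48 hpf, and of the 3895 in it at 48 hpf, 3500 (89.9%) were in it at 72 hpf. No window crossed from 80% or more to 20% or less between neighbouring stages, in either direction. A pair of stages has 2 libraries against 2, for which the smallest exact permutation p is 0.333, so the shifts of the means were not tested by pair.

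Between 72 hpf and the tube feet, the same test called 1863 CpG-poor windows lower in the tube feet (26.5%) and 35 higher (0.497%). Over windows of any CpG number 9.36% were called lower and 1.01% higher. The CpG-poor windows were thus called lower more often than windows in general and called higher less often, as descriptions of these shares. Only 259841 of the 546613 windows of any CpG number were fitted, against 6481 of the 7036 CpG-poor windows. The windows not fitted could not be called in either direction but count in these shares, so the shares have unequal bases. The share called lower was 14.4% at 1 site (28 windows), 25.5% at 2 sites (399 windows) and 27.2% at 3 sites (1436 windows), and 22.7% of the windows of 4 to 7 sites were called lower.

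The number of calls rested on having both replicates. Without 1 of the 4 libraries of the contrast, the CpG-poor windows called in either direction were 1181 without 72 hpf replicate 1, 1066 without 72 hpf replicate 2, 1007 without tube foot replicate 1 and 970 without tube foot replicate 2, against 1898 with all libraries. When 24 hpf replicate 2 was left out and windows were chosen on the other 7 libraries, 6625 of 26527 windows were called.

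Against all embryos together, 2335 CpG-poor windows were called lower in the tube feet (33.2%) and 61 higher (0.867%), and over windows of any CpG number these shares were 10.9% and 1.14%. The windows that were not fitted count in these shares too. Both tube foot libraries were below all 6 embryo libraries in 3289 CpG-poor windows (46.7%), against 19.3% of windows of any CpG number. Both were above all 6 in 251 (3.57%), against 5.25%. Leaving out a tube foot library brought the calls against all embryos from 2396 to 1412 or 1391.

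Windows with a lower call against 72 hpf ended intermediate or low, and most of them started high. At 72 hpf 1330 of the 1863 (71.4%) were at 80% or more and 533 (28.6%) between 20% and 80%. The median level of the windows called lower was 86.7% at 72 hpf (interquartile range 78.3% to 91.7%). In the tube feet it was 31.3% (16.1% to 46.3%), and the median difference was -50.0 points. In the tube feet 1276 of them (68.5%) were between 20% and 80% and 587 (31.5%) at 20% or less, and 102 (5.48%) had no methylated read in either tube foot library. They lay on 773 scaffolds. In 1852 of them both tube foot libraries were below all 6 embryo libraries, against 46.7% of all CpG-poor windows and 19.3% of windows of any CpG number. The windows were chosen for a fall between the libraries of 72 hpf and tube feet, so the count of 1852 is a description. The share called hardly varied with depth, at 26.3% (1034 of 3925), 26.1% (408 of 1565) and 27.2% (421 of 1546) for windows with 10 to 14, 15 to 19, and 20 or more reads in the least covered library.

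The 35 windows called higher went from low or intermediate to intermediate or high. Their median was 29.6% at 72 hpf and 79.3% in the tube feet, and their median change was 40.2 points. At 72 hpf 15 of them were at 20% or less and 20 between 20% and 80%. In the tube feet 18 were between 20% and 80% and 17 at 80% or more. None of them had a single CpG site, and they lay on 35 scaffolds.

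**Figure D3:**
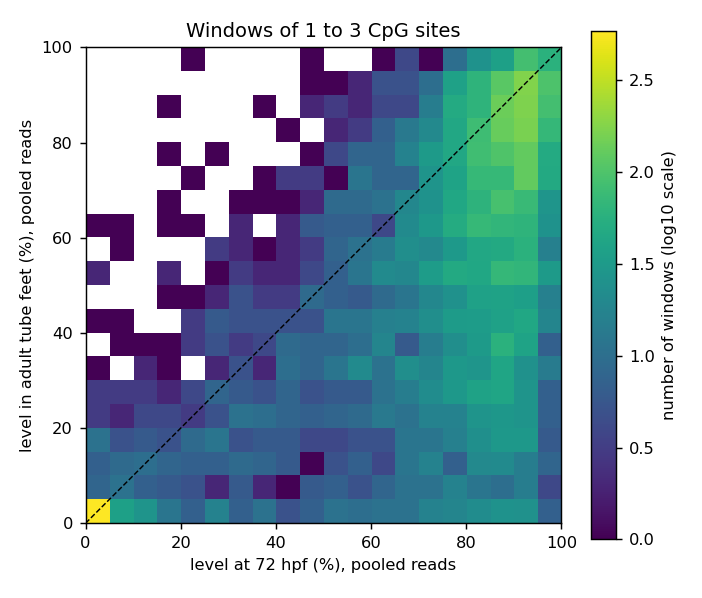
Level in adult tube feet (percent, vertical axis) against the level at 72 hpf (percent, horizontal axis) of the 7036 windows of 1 to 3 CpG sites, shaded by number of windows. Most windows lie below the diagonal, and windows near 0% at 72 hpf stay near 0% in the tube feet.

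What a CpG-poor window did in the tube feet went with its level at 72 hpf. Of the 4099 windows at 80% or more at 72 hpf, 1566 (38.2%) kept that class in the tube feet, 2250 (54.9%) fell into the middle class of 20% to 80%, and 283 (6.90%) reached 20% or less. Of the 2134 windows in the middle class, 1470 stayed in it, 412 (19.3%) went to 20% or less and 252 went to 80% or more. Of the 803 windows at 20% or less, 756 (94.1%) stayed there and 1 went to 80% or more. The low windows thus kept their class more often than the others.

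In the same class of starting level, CpG-poor windows and windows of 4 to 7 sites were called about equally often. Of windows at 80% or more at 72 hpf, 1330 of 4099 CpG-poor windows (32.4%) and 13236 of 42259 windows of 4 to 7 sites (31.3%) were called lower in the tube feet. In these windows the level at 72 hpf sets the class and also enters the contrast. Classes were also set by all 6 embryo libraries, which include those of 72 hpf, so this dependence is not removed. At 80% or more in all 6, the 2208 CpG-poor windows averaged 69.0% and 68.6% in the tube feet, and the 24052 windows of 4 to 7 sites averaged 71.4% and 70.7%. Over the embryo libraries the CpG-poor windows of this class averaged 91.4% and those of 4 to 7 sites 90.7%. Between 20% and 80% in all 6, the 720 CpG-poor windows averaged 40.4% and 40.5% in the tube feet, and the windows of 4 to 7 sites 46.4% in both. In the embryos the CpG-poor windows of this middle class were already lower, at 55.1% against 57.8%. The differences of tube feet from embryos were -14.6 points and -11.4 points. At 20% or less in all 6, the 686 CpG-poor windows averaged 2.45% in the first tube foot replicate and 2.42% ± 0.031 (SD, n = 2) over both. The windows of 4 to 7 sites in that class averaged 1.52% ± 0.019 (SD, n = 2) in the tube feet.

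Single windows show the size of the falls. The windows named here had 20 or more reads in each library and the largest changes among called windows of their CpG number whose libraries at 72 hpf and in the tube feet did not overlap. A window of 3 sites on Scaffold356 (positions 343501 to 344000, assembly Spur3.1) had 41 of 43 and 30 of 31 reads methylated at 24 hpf, 82 of 88 and 68 of 72 at 48 hpf, and 41 of 42 and 43 of 46 at 72 hpf. In the tube feet it had 0 of 58 and 0 of 55. The embryo libraries were all near full methylation, and the tube feet had none among 113 reads, which allows a level of up to 2.65%. The pooled difference was -95.5 points (limma-moderated quasi-likelihood test, adjusted p = 4.8e-05).

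A second window of 3 sites, on Scaffold57 (1490501 to 1491000), had 29 of 30, 65 of 67, 36 of 40, 58 of 64, 32 of 35 and 28 of 30 reads methylated in the embryo libraries in order of stage. It had 0 of 33 and 0 of 25 in the tube feet and fell by 92.3 points (adjusted p = 0.0001). Its tube foot counts allow a level of up to 5.17% if they were independent. Both windows thus separated the tube feet from every embryo library by most of the scale. The window of 2 sites with the largest fall, on Scaffold119 (413501 to 414000), had 27 of 31, 31 of 33, 37 of 43, 27 of 34, 27 of 29 and 39 of 42 reads methylated in the embryos. In the tube feet it had 0 of 21 and 0 of 26 (up to 6.38% if independent), and it fell by 93.0 points (adjusted p = 0.00012). Another window of 2 sites, on Scaffold2064 (134501 to 135000), went from 30 of 33 and 39 of 42 at 72 hpf to 1 of 21 and 0 of 34 in the tube feet, a fall of 90.2 points (adjusted p = 0.00014).

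The named windows with 1 site fell less far. They were picked from 28 windows called lower, against 399 with 2 sites and 1436 with 3 sites. Over all windows below the limit of 280 reads per site, the mean difference of tube feet from embryos was similar. It was -18.7 points at 1 site, -19.7 points at 2 sites and -19.2 points at 3 sites. On Scaffold651 (56501 to 57000) the single site had 25 of 33 and 312 of 420 reads methylated at 24 hpf, 27 of 42 and 30 of 42 at 48 hpf, 37 of 46 and 33 of 43 at 72 hpf, and 13 of 31 and 13 of 35 in the tube feet. Most reads of this site thus came from 24 hpf replicate 2, whose level of 74.3% lay beside the 75.8% of replicate 1. The fall from 72 hpf was 39.3 points (adjusted p = 0.0117). The single site on Scaffold1015 (129501 to 130000) went from 30 of 42 and 29 of 40 at 72 hpf to 19 of 49 and 20 of 47 in the tube feet, a fall of 31.3 points (adjusted p = 0.0204). This call was lost in limma on log-ratios (adjusted p = 0.0725).

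Rises started from unmethylated or from intermediate windows. On Scaffold1244 (150001 to 150500, 3 sites) the embryos had 0 of 43, 2 of 27, 0 of 51, 0 of 45, 1 of 45 and 0 of 38 reads methylated, and the tube feet had 11 of 39 and 25 of 48. The tube foot replicates were far apart, at 28.2% and 52.1%, and both were above every embryo library (40.2 points, adjusted p = 0.00635). On Scaffold539 (323501 to 324000, 2 sites) the embryos had at most 3 methylated reads in a library, and the tube feet had 38 of 125 and 20 of 83 (26.3 points, adjusted p = 0.00207). On Scaffold427 (66501 to 67000, 3 sites) the level went from 14 of 27 and 27 of 45 at 72 hpf to 24 of 27 and 37 of 39 in the tube feet (35.5 points, adjusted p = 0.0111). At 24 hpf that window had been at 41 of 54 and 16 of 21. The calls on Scaffold651 and Scaffold1015 were lost without any 1 of the 4 libraries compared (quasi-likelihood test, adjusted p 0.0574 to 0.0994 and 0.0848 to 0.125). The call on Scaffold427 was lost without either library of 72 hpf or tube foot replicate 2 (adjusted p 0.052 to 0.142), and that on Scaffold1244 without 72 hpf replicate 2 or tube foot replicate 2 (adjusted p 0.0594 to 0.0673).

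**Figure D4:**
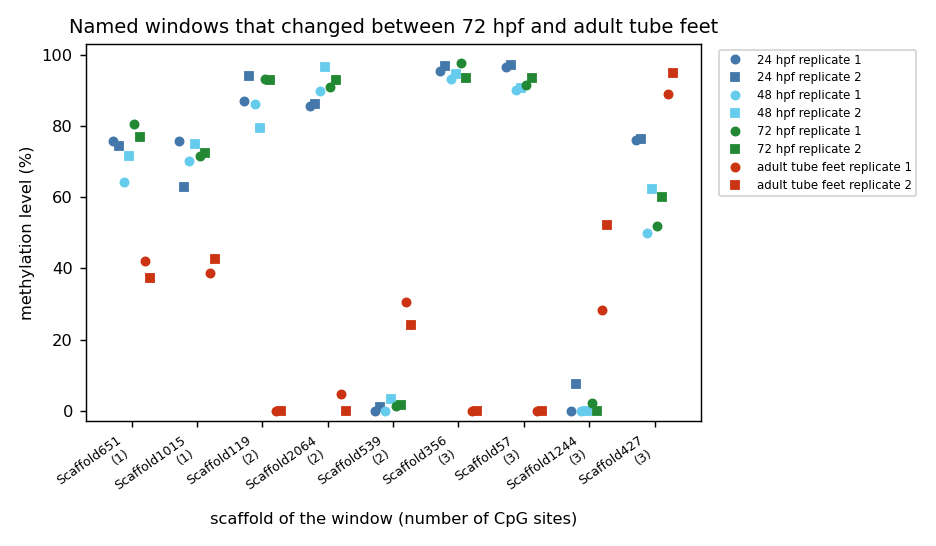
Level (percent, vertical axis) of the 9 named windows that differed between 72 hpf and adult tube feet, each labelled by scaffold and CpG number, with 1 point per library. In the 2 windows of 3 sites that fell, the tube feet are at 0% in both libraries, and in Scaffold1244 they are at 28.2% and 52.1%.

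Steady windows were found at both ends. In every library 779 CpG-poor windows (11.1%) were at 80% or more, 660 (9.38%) at 20% or less and 451 (6.41%) between. The best covered steady low windows were among those with uneven depth. A window of 3 sites on Scaffold1082 (330501 to 331000) had the most reads of all CpG-poor windows, 11255 over the 8 libraries, with 285 in 24 hpf replicate 2, 1446 to 2386 in each other embryo library, and 698 and 607 in the tube feet, and 4 of the 1305 tube foot reads were methylated. A window of 1 site on Scaffold2528 (41001 to 41500) had 1607 reads in 24 hpf replicate 2, and 1 of its 357 tube foot reads was methylated. Among steady high windows, one of 3 sites on Scaffold89 (121501 to 122000) had 223 of 266 tube foot reads methylated, and one of 2 sites on Scaffold292 (608501 to 609000) had 98 of 106.

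The CpG-poor windows followed their surroundings, with a larger fall. Both neighbouring windows held 4 or more sites and passed the minimum of reads in 1615 of the 7036 cases, and the median neighbour had 8 sites. In these the CpG-poor windows averaged 75.3%, 76.3%, 73.1%, 73.8%, 74.8% and 74.3% in the embryo libraries in order of stage, and 57.9% and 57.7% in the tube feet. Their neighbours averaged 77.2%, 78.1%, 75.2%, 76.1%, 77.1% and 76.5% in the same embryo libraries, and 63.1% and 62.5% in the tube feet. The CpG-poor window was below its neighbours on average in each library, with a distance of -2.29 to -1.78 points in the embryos and of -5.13 and -4.77 points in the tube feet.

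The mean distance was -2.81 points (exact two-sided sign-flip permutation p = 0.00781, adjusted 0.0305). Its change from embryo to tube feet was -2.85 points (exact permutation p = 0.0357, adjusted 0.0519), in a test added after the values had been seen. With windows chosen on the 7 libraries other than 24 hpf replicate 2, the change was -1.63 points (exact permutation p = 0.0476). For comparison, windows of 4 to 7 sites lay -0.792 to -0.493 points from their own neighbours in the embryos and -1.47 and -1.33 points from them in the tube feet. The distances of the 2 classes were not tested against each other.

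**Figure D5:**
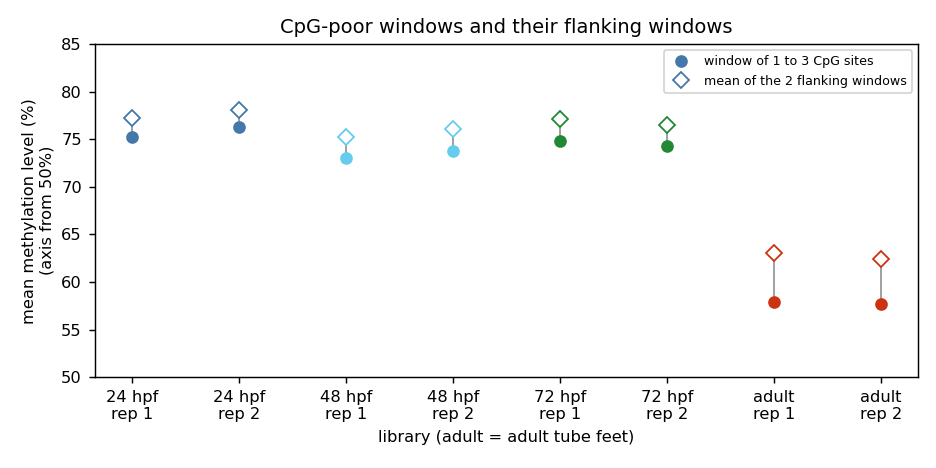
Mean level (percent, vertical axis) of 1615 windows of 1 to 3 CpG sites and of their neighbouring windows, by library. The CpG-poor windows lie below their neighbours in every library, by a distance of -5.13 and -4.77 points in the tube feet and of -2.29 to -1.78 points in the embryos.

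Where both neighbours were at 80% or more at 72 hpf (973 windows), 731 CpG-poor windows (75.1%) were at 80% or more, 242 (24.9%) lay between 20% and 80%, and 0 were at 20% or less, which allows a share of up to 0.308%. Where both neighbours were at 20% or less (136 windows), all 136 CpG-poor windows were too. Across the 1615 windows the change from 72 hpf to tube feet correlated with that of the neighbours at r = 0.697, over windows that share libraries and, in part, reads. Of 370 windows called lower that had such neighbours, both neighbours were called lower in 158 (42.7%), 1 in 134 (36.2%) and none in 78 (21.1%). Of all windows of 4 to 7 sites 22.7% were called lower, and of those of 8 to 11 sites 12.5%. Neighbours of CpG-poor windows without a call were not counted, so the shares among the 370 have no matched base. The median change was -49.1 points in the 370 windows and -32.5 points in their neighbours, and in 47 (12.7%) the neighbours fell by less than 10 points on average. The windows were chosen for their own fall, so that a smaller fall of the neighbours is a description.

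Most windows called lower were lower at all of their sites. Of the 1835 windows of 2 or 3 sites called lower, 1480 had at least 5 reads at every site at 72 hpf and in the tube feet, pooled by group. Every site was lower by 20 points or more in 1053 of them (71.1%), and exactly 1 site was in 116 (7.84%). In 69 (4.66%) at least 1 site was higher in the tube feet. The windows were chosen for the fall summed over these same sites, so these shares are a description.

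Neighbouring sites within a CpG-poor window were similar at 72 hpf and less so in the tube feet. The median difference between adjacent sites with at least 10 reads each was 7.14 points at 72 hpf and 9.81 points in the tube feet, and pairs 40 points or more apart made up 7.69% (761 of 9897) and 12.2% (1136 of 9330). The difference grew with distance, from 5.53 points for sites under 50 bp apart to 10.3 points at 200 bp or more at 72 hpf, and from 7.19 to 16.5 points in the tube feet. Reads that cover both sites are shared more often at short distance, and their part in this was not tested. Sites needed only 10 reads, and counting error is larger at intermediate levels. Windows between 20% and 80% made up 30.1% and 31.5% in the libraries of 72 hpf and 51.1% and 52.4% in the tube feet. The part of counting error in the larger differences of the tube feet was not tested. In windows of 4 to 7 sites the median differences were 5.26 and 6.67 points.

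The spread between replicates sets the scale for single windows. The median difference between replicates was 6.95 points for 24 hpf, 5.56 for 48 hpf, 5.57 for 72 hpf and 6.43 for tube feet. Replicates were 40 points or more apart in 14 to 83 of the CpG-poor windows (0.199% to 1.18%), whereas a library at 72 hpf and one of the tube feet were that far apart in 1480 to 1505 (21.0% to 21.4%). For windows of 4 to 7 sites, which have more reads, the median difference between replicates was 3.96 to 5.29 points.

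The CpG-poor windows were spread over the assembly. They lay on 1857 of 28820 scaffolds, with at most 48 and in the median 2 on a scaffold that had any. In 266 cases 2 of them were adjacent, 3032 (43.1%) had a neighbour of 1 to 3 sites, and 73 (1.04%) were the first or last window listed on their scaffold. Genes and sequence at these positions were not analysed here.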

How the data were processed

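The authors deposited, for each library, a methylation percent and counts of methylated and unmethylated reads per CpG site. Per the file headers, MethylDackel made the calls on merged, sorted, deduplicated reads against Spur3.1 with lambda phage added. Trimmomatic and Picard are named in the submitters' processing notes. Neither aligner nor versions are stated there. The percent column was used only to check the counts.

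Counts were summed over 500 bp windows, lambda left out. Windows needed 10 reads in each library. The quasi-binomial model used 1 mean per group, all 8 libraries, and dispersions moderated on log mean coverage with a lower bound of 1 (limma 3.58.1, R 4.3.3). Mean levels below 2.5% or above 97.5% were not fitted, but such windows counted in the adjustment. The fit was tested on simulated data. Library values were tested by exact permutation in numpy 2.4.6, pandas 2.3.3 and scipy 1.17.1 (Python 3.11.15). The CpG-poor windows, tests and lists were chosen with earlier results of these data known. The windows named per CpG number were the 2 largest called rises and 2 largest falls without overlap, the best covered steady high and low windows, and the 2 with most reads. Fewer than 2 qualified for rises at 1 and 2 sites, and none between stages. Alternatives changed the read minimum, grid, CpG number, deeply read windows, libraries, thinning to 10 reads, test, block, dispersion bound and the 20 points. Limits on levels of 0 are 3 reads of the total and cover counting error only. They treat counts at different sites as independent and are too low where 1 read covers several sites. The replicates' separate origin rests on the submitters' design text.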

Additional observations from a re-analysis of the deposited data

Results flagged for a closer look

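In 10 measures examined over the 6 embryo libraries, 2 libraries stood apart by Dixon's test at the 95% level. Chance marks about 1 in 20 such measures. The pooled level of the windows of 1 to 3 CpG sites was 51.9% in 24 hpf replicate 2, below 63.3% to 67.5% in the other embryo libraries. Lambda methylation was 0.112% in 24 hpf replicate 1 (Wilson 95% interval 0.107% to 0.117%), below 0.232% to 0.296% in the other embryo libraries.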

How the results depend on the processing

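Of 330 recomputed summary values, 299 were classed as the same as in the main setting. This class did not require the same direction where neither test passed. The pooled difference of 72 hpf from 24 hpf, for example, was 6.43 points in the main setting and -0.577 points without the deeply read windows. Counts of called windows, which have no p-value, were among the 330, and those between stages were 0 in every setting. With 20 reads in each library, the distance to windows of 4 to 7 sites turned to -0.238 points (exact permutation p = 0.50), and the pooled fall in the tube feet was -9.25 points (exact permutation p = 0.179). The cause was not tested. Called windows in tube feet against 72 hpf numbered 427 of 1546 at 20 reads, 4693 of 19975 at 5 reads and 6625 of 26527 without 24 hpf replicate 2, and against all embryos 491, 6215 and 8266, from different numbers of windows tested. The pooled test of the 4 groups passed at 16.7 points with windows chosen on 7 libraries (exact permutation p = 0.00952), at 19.5 without the deeply read windows (exact p = 0.0381) and at 20.3 with windows thinned to 10 reads (exact p = 0.00952).

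Leaving out each library in turn, the difference of tube feet and embryos ranged from -19.2 to -18.5 points for the mean level, -16.2 to -13.1 for the pooled level, -31.7 to -30.0 for the share at 80% or more and 20.1 to 21.7 for the share between 20% and 80%. The difference of the changes ranged from -4.89 to -4.75 points against windows of 4 to 7 sites and from -3.03 to -2.67 against neighbours. Under the other alternatives they ranged from -5.20 to -1.93, nearest 0 at 20 reads, and from -3.11 to -1.63, nearest 0 with windows chosen on 7 libraries. The pooled spread of the 4 groups ranged from 16.4 to 18.1 with a library left out. Without a tube foot library the exact permutation p of each difference was 0.143, the smallest that design allows. Calls ranged from 970 to 2001 against 72 hpf and from 1391 to 2382 against all embryos.

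Over the CpG-poor windows, deviations of same-numbered libraries correlated at -0.0205 to 0.0786 between groups, highest for 24 and 48 hpf. With so few reads per window, these values cannot show whether replicate numbers pair the samples. With the replicate block 1705 windows were called against 72 hpf and 2255 against all embryos, and limma on log-ratios called 1450 and 2068. Single windows are limited by depth, with a median of 18 to 39 reads.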
